A study of Mus musculus with 4 samples.

Results

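The vascular endothelial growth factor (VEGF) ligands and receptors were followed through single-cell RNA sequencing of mouse adipose tissue. The set had 10 members out of the 32290 features of the count tables. They were taken by gene symbol and not by a cutoff on a measured value. The list was chosen with earlier results of these data known. The ligands were Vegfa, Vegfb, Vegfc, Vegfd and Pgf. The receptor tyrosine kinases were Flt1 (VEGFR1), Kdr (VEGFR2) and Flt4 (VEGFR3), and the coreceptors were Nrp1 and Nrp2. All 10 had at least 1 unique molecular identifier (UMI, the tag that marks 1 captured transcript), as did 24170 features of the whole table. They held 10235 of the 43157913 UMIs of the cells kept, of which 5595 were of ligands, 723 of receptors and 3917 of coreceptors.

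There were 4 libraries, 1 per group, from subcutaneous (SC) and intraperitoneal (IP) adipose tissue of male mice 7 months old that had been on a high-fat diet (HFD) for 5 months. WT mice were Tie2e-cre; TERT+/+; mTmG and KO mice were Tie2e-cre; TERTfl/fl; mTmG, so the controls carried the same Cre driver and the same reporter, which switches from membrane Tomato to membrane GFP in cells where Cre has acted. Tie2 is active in endothelial cells (EC) and also in blood cell lineages, so the deletion need not be limited to the vessel wall, and a GFP UMI was found in 16 of 26 EC and in 239 of 721 adipose stromal cells (ASC). It was also found in 917 of 1874 T cells and in 245 of 813 B cells. The number of mice behind each library was not given in the sources used here, and Tert itself had 2 to 9 UMIs per library over all barcodes, too few to check the genotype. The labels name the material both as cells and as a nuclei suspension.

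With 1 library per group, the spread between mice could not be measured, no test between groups was possible, and library, genotype and depot cannot be told apart. Levels are UMIs per 1000000 UMIs of a cell class (CPM), which need no scaling by transcript length because a UMI marks the 3' end of 1 transcript. Each level, ratio and share is followed in parentheses by its 95% interval (exact Poisson for CPM, exact conditional binomial for log2 ratios, Clopper-Pearson for shares), and these intervals cover counting error only. A difference called beyond counting error is one whose interval leaves out 0 on the log2 scale. The 3' tags do not separate the splice forms of Vegfa, nor soluble from membrane Flt1.

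After filtering, 4020 cells were kept and 3817 were assigned to 1 of 16 cell classes by the UMIs of marker genes, none of which is a member. The libraries held 968 (WT SC), 1862 (KO SC), 672 (WT IP) and 518 (KO IP) kept cells with median depths of 7459, 6905, 13047 and 10232 UMIs. T cells and B cells made up most of the SC libraries and ASC the largest class of the IP libraries. ASC numbered 103, 120, 280 and 218 in the same order, EC 3, 1, 17 and 5, and mesothelial cells 0, 0, 4 and 31. No barcode was assigned to adipocytes, so what adipocytes make of these factors was not measured. The KO SC and WT IP libraries shared 93 cell barcodes, against 0 or 1 in every other pair of libraries. In KO SC these barcodes had a median of 601 UMIs, 1.71% of the UMIs of the same barcode in WT IP, and 78 of the 83 that received a class in KO SC had the same class in both. They were left out of KO SC, where they would have raised the ASC from 120 to 196.

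VEGF ligands are secreted dimers that drive the growth and permeability of vessels. VEGF-A binds FLT1 and KDR, and VEGF-B and placental growth factor (PGF) bind FLT1. VEGF-C and VEGF-D bind FLT4 of lymphatic endothelium, and VEGF-C, once processed, also binds KDR. KDR is the main signalling receptor of blood vessels, FLT1 binds tightly but signals weakly and can act as a decoy, and neuropilins lack a kinase and are shared between VEGF and the class 3 semaphorins. In adipose tissue, vessels must grow with expanding adipocytes, and VEGF-A is known as a main angiogenic factor of the tissue.

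On mm10 (GRCm38, GENCODE vM21), the ligand genes were Vegfa (ENSMUSG00000023951, chromosome 17, 46016993-46032369, minus strand), Vegfb (ENSMUSG00000024962, chromosome 19, 6982473-6987651, minus), Vegfc (ENSMUSG00000031520, chromosome 8, 54077606-54187096, plus), Vegfd (ENSMUSG00000031380, chromosome X, 164373378-164402650, plus) and Pgf (ENSMUSG00000004791, chromosome 12, 85166635-85177790, minus). The receptor genes were Flt1 (ENSMUSG00000029648, chromosome 5, 147561604-147726011, minus), Kdr (ENSMUSG00000062960, chromosome 5, 75932827-75978458, minus) and Flt4 (ENSMUSG00000020357, chromosome 11, 49609263-49652739, plus). The coreceptor genes were Nrp1 (ENSMUSG00000025810, chromosome 8, 128358604-128503363, plus) and Nrp2 (ENSMUSG00000025969, chromosome 1, 62703285-62818695, plus). Nrp1 contains Mir1903 on its own strand, and Nrp2 overlaps Gm37121 on its own strand and Gm29083 on the other, so UMIs within those overlaps are uncertain. The other 8 overlap no annotated gene.

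The 250 bases before the first RefSeq start site (GRCm38.p6) are shown for 3 ligands that ASC make with different depot patterns, given further on: Vegfa, which was higher in SC, Vegfb, whose total over ASC did not differ between depots beyond counting error, and Vegfc, which was higher in IP. These 3 windows lie wholly outside the GENCODE gene. Capitals mark the GC box GGGCGG or its complement CCGCCC, and each sequence reads in the direction of its gene, from chr17:46032378-46032627 (minus), chr19:6987652-6987901 (minus) and chr8:54077282-54077531 (plus).
Vegfa: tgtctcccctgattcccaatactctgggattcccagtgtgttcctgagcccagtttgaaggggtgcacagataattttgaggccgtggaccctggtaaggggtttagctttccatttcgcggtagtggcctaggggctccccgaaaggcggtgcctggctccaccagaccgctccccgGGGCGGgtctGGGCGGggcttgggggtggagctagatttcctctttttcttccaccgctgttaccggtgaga
Vegfb: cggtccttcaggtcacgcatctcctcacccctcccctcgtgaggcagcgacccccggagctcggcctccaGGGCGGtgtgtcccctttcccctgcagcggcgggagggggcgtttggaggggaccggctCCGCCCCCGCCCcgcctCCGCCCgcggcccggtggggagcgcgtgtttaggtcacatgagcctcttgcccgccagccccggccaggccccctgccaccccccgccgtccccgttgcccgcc
Vegfc: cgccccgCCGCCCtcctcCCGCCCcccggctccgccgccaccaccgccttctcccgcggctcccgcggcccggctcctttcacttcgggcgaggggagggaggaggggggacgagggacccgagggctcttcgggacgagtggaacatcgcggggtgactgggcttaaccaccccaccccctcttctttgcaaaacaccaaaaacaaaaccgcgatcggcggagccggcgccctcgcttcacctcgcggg
The windows held 2, 4 and 2 GC boxes, counting overlapping matches on both strands, and 32.7% of all 32851 RefSeq promoter windows held at least 1. None of the 3 held the hypoxia response element core ACGTG on either strand, which 16.6% of all windows held. Bases further upstream of these windows were not searched. RefSeq lists a second start site for Vegfa, whose window at chr17:46025164-46025413 lies inside the gene and is not shown, and that one held 1 match of this core and 1 GC box.

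Which classes made the ligands and which the receptors was asked first. Ligand transcripts were mostly in ASC and receptor transcripts mostly in EC. ASC, which held 32.4% of all UMIs, held 78.4% (77.3 to 79.4) of the ligand UMIs. EC, which were 26 cells with 0.94% of all UMIs, held 59.8% (56.1 to 63.3) of the receptor UMIs, with 13.1% in mesothelial cells and 11.2% in ASC. Coreceptor UMIs were in ASC for 66.1%, T cells for 13%, macrophages for 6.36% and EC for 4.26%.

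**Figure D1:**
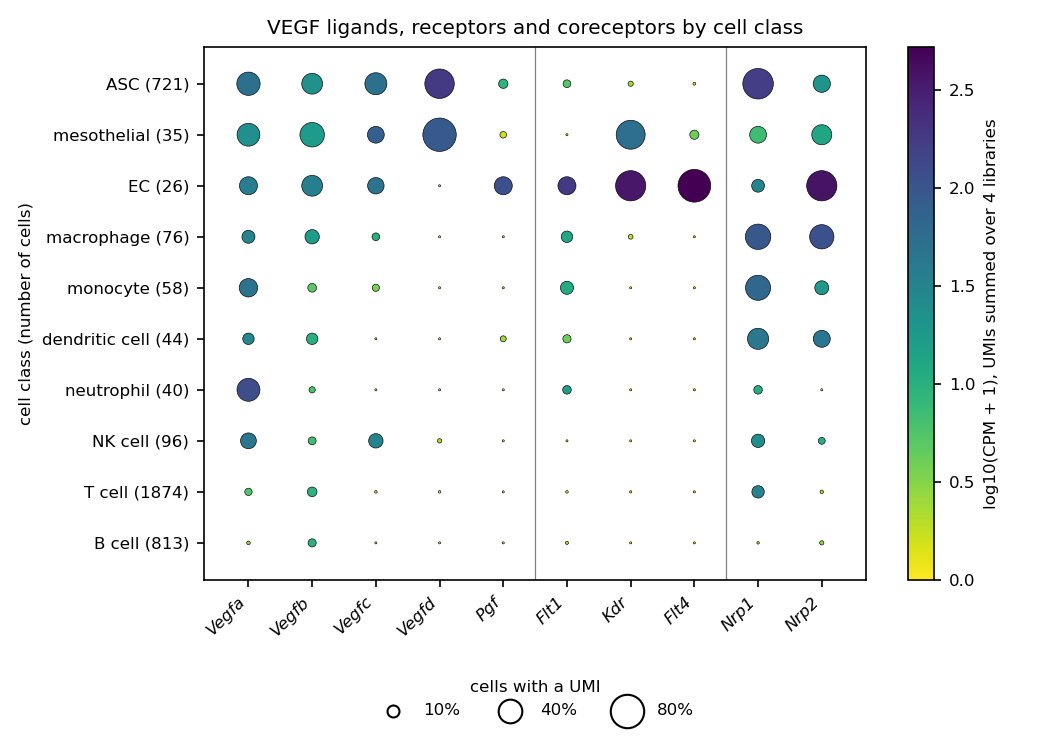
Levels of the 10 members (columns) in the cell classes with at least 20 cells over the 4 libraries (rows), where dot size is the percent of cells with a UMI and colour is log10(CPM + 1). ASC lead for Vegfd and Nrp1, EC lead for Flt1, Kdr, Flt4 and Nrp2, and mesothelial cells are the other class with Kdr, at 54.4 CPM.

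Among the ligands, Vegfd was the most abundant in ASC and the most restricted. Its level over all libraries was 178 CPM (172 to 186) in the 721 ASC and 89.4 CPM (75.6 to 105) in the 35 mesothelial cells, a log2 ratio of 0.99 (0.76 to 1.25). The next class, NK cells, had 1 UMI. ASC held 90.9% of the Vegfd UMIs.

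Vegfc, the other ligand of FLT4, was at 52.5 CPM (48.7 to 56.4) in ASC, which held 76.8% of its UMIs. Mesothelial cells stood higher, at 79.1 CPM (66.2 to 93.9), but 92 of the 120 UMIs of the 4 WT IP mesothelial cells came from 1 cell, and the 31 KO IP mesothelial cells were at 7.13 CPM (3.56 to 12.8). Without the top cell of each class and library, ASC were the highest class.

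Vegfa was made by several classes. Neutrophils had the highest level, 119 CPM (76.0 to 176) from 24 UMIs in 40 cells, above ASC at 52.7 CPM (48.9 to 56.6) by a log2 ratio of 1.20 (0.52 to 1.75). The ASC level did not differ beyond counting error from those of monocytes at 46.8 CPM (32.8 to 64.8), the next in order, which in turn did not differ from NK cells at 43.8 CPM (31.0 to 60.2). Because ASC were many and rich in RNA, they still held 67.6% of the Vegfa UMIs. B cells, taken as the level of free RNA, were at 1.51 CPM. This order pools depots in which the classes are mixed differently. Of the neutrophils, 22 were from KO IP. The ASC level was 85.8 CPM in WT SC and 166 CPM in KO SC, within the interval of neutrophils. It was 25.6 CPM in WT IP and 35.7 CPM in KO IP. The order of these classes is thus read for the pooled libraries only.

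Vegfb, which acts through FLT1, was low and found in every class in the order. EC were at 34.6 CPM (18.9 to 58.0), ASC at 21.7 CPM (19.4 to 24.3), mesothelial cells at 16.3 CPM (10.7 to 23.7) and macrophages at 15.9 CPM (9.58 to 24.9), and these did not differ from the next in order beyond counting error. B cells at 8.65 CPM (6.18 to 11.8), T cells at 8.34 CPM (7.01 to 9.85) and monocytes at 3.90 CPM (0.80 to 11.4) lay below the interval of ASC.

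Pgf had the opposite habit, with few and separate sources. EC were at 114 CPM (83.2 to 152) and ASC at 8.08 CPM (6.66 to 9.71), and the 17 mural cells, too few to enter the order of classes, were at 90.2 CPM (58.4 to 133) with a UMI in 10 of 17 cells. Of the Pgf UMIs, 56.5% were in ASC, 23.0% in EC and 12.5% in mural cells. In EC, 25 of the 46 UMIs came from 1 cell.

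The receptors were led by EC in each case. Flt4, the VEGF-C and VEGF-D receptor, was at 524 CPM (456 to 599) in EC, which held 91.8% of its UMIs, and the next class, mesothelial cells, was at 3.02 CPM (0.98 to 7.05). Kdr was at 361 CPM (305 to 424) in EC and at 54.4 CPM (43.7 to 66.8) in mesothelial cells, and these classes held 51.2% and 31.6% of its UMIs. The mesothelial Kdr was spread over cells, with 84 UMIs in 19 of the 31 cells of KO IP. ASC were at 1.43 CPM (0.87 to 2.21).

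Flt1 was at 183 CPM (144 to 229) in EC, but on few cells: 33 of the 45 UMIs of the WT IP EC came from 1 cell. EC held 35.7% of the Flt1 UMIs and ASC 28.5%. Neutrophils at 14.8 CPM (3.06 to 43.3), macrophages at 11.7 CPM (6.41 to 19.7) and monocytes at 10.4 CPM (4.49 to 20.5) followed and did not differ from the next among them beyond counting error. EC were above neutrophils by a log2 ratio of 3.41 (2.02 to 5.93), and monocytes above ASC by 1.38 (0.03 to 2.37). The 13 Flt1 UMIs of mural cells were all in 1 cell.

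The coreceptors split between stroma and endothelium. Nrp1 was highest in ASC at 165 CPM (159 to 172), ahead of macrophages at 95.5 CPM (78.8 to 115) and monocytes at 67.6 CPM (50.5 to 88.6). Nrp2 was highest in EC at 383 CPM (325 to 448), then macrophages at 113 CPM (94.8 to 134) and dendritic cells at 43.9 CPM (29.1 to 63.4), with ASC at 19.7 CPM (17.4 to 22.1). B cells had 0.87 CPM of Nrp1.

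The EC were split into cells with UMIs of at least 2 lymphatic markers and cells with fewer, and the summed receptor levels differed between these sets. For Flt1 this rests on the 6 EC that had a UMI of it. Of the 26 EC, 18 had UMIs of at least 2 of the lymphatic markers Prox1, Mmrn1, Reln, Lyve1 and Ccl21a, and 17 of the 18 were from IP. In these, Flt4 was at 628 CPM (546 to 719), Nrp2 at 465 CPM (394 to 545), Kdr at 432 CPM (364 to 509) and Pgf at 139 CPM (102 to 185), while Flt1 was at 12.1 CPM (3.29 to 30.9) and Nrp1 had no UMI (limit of 9.06 CPM from 3 counts). In the other 8, Flt1 was at 950 CPM (741 to 1200.4), Vegfc at 244 CPM (145 to 386) and Nrp1 at 163 CPM (84.2 to 285), with Flt4 at 54.3 CPM (14.8 to 139) and Kdr at 40.7 CPM (8.40 to 119).

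The log2 ratio of cells with lymphatic markers over the others was 3.37 (2.15 to 5.42) for Flt4, 3.19 (1.83 to 5.70) for Kdr, 4.52 (2.6 to 10.4) for Nrp2 and -6.14 (-8.21 to -4.88) for Flt1. In the WT IP library alone, with 13 such cells against 4, it was 3.51 (1.59 to 9.41) for Flt4, 3.21 (1.28 to 9.11) for Kdr and -6.22 (-8.32 to -4.91) for Flt1. Cell by cell, all 17 EC with a Kdr UMI also had a Flt4 UMI, and 15 of the 20 with a Flt4 UMI had a Nrp2 UMI. Of the 6 with a Flt1 UMI, 4 also had a Flt4 UMI. Most Flt1 UMIs of the WT IP EC came from a single cell, so the Flt1 ratio of that library rests largely on it. The 26 cells are too few for KO and WT to be compared. The EC levels of Flt4 and Kdr given here are largely those of cells with lymphatic markers. The EC level of Flt1 is largely that of the other cells, with 70 UMIs against 4.

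**Figure D2:**
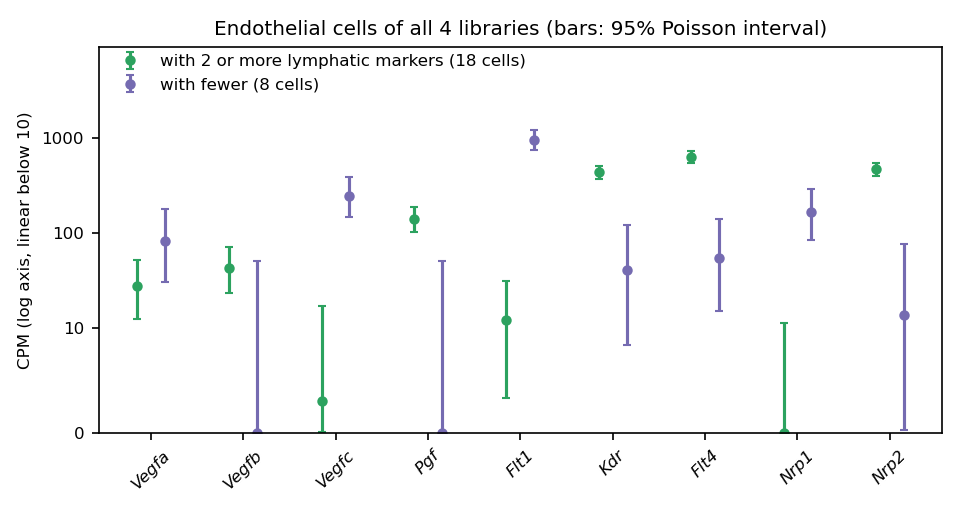
Member levels in CPM (vertical axis, logarithmic above 10 and linear below) in EC with at least 2 lymphatic markers (18 cells) and in the other EC (8 cells), over all libraries, with 95% Poisson intervals as bars. Flt4, Kdr, Nrp2 and Pgf stand high in the first set and Flt1, Vegfc and Nrp1 in the second.

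The next comparison was between depots, within ASC, where IP and SC libraries of 1 genotype were set side by side. ASC of IP carried more of the lymphatic ligands Vegfc and Vegfd and of both neuropilins, and less Vegfa and Pgf, than ASC of SC, in both genotypes. In WT, 7 of the 8 members with at least 20 UMIs in the pair were past 1.5-fold, 5 higher and 2 lower in IP, where 32.8% of all 11697 genes compared were past it (18.8% higher and 14.0% lower). In KO, 6 of 7 were past 1.5-fold, 4 higher and 2 lower, against 34.0% of 11348 genes (21.1% higher and 12.9% lower). The median log2 ratio of the members was 1.0 in WT and 0.94 in KO, beside 0.07 and 0.10 over all genes.

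Vegfa in ASC was at 85.8 CPM (72.8 to 100.4) in WT SC, 166 CPM (146 to 187) in KO SC, 25.6 CPM (21.7 to 29.9) in WT IP and 35.7 CPM (30.4 to 41.7) in KO IP. Both SC libraries were above both IP libraries, with log2 ratios of IP over SC of -1.75 (-2.08 to -1.42) in WT and -2.21 (-2.51 to -1.93) in KO.

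Pgf was at 41.5 CPM (32.7 to 52.0) in WT SC, 19.3 CPM (13.1 to 27.4) in KO SC, 0.33 CPM (0.04 to 1.18) in WT IP and 1.12 CPM (0.36 to 2.6) in KO IP. The IP levels rest on 2 and 5 UMIs, so Pgf was close to the limit of detection in ASC of IP. Its log2 ratios of IP over SC were -6.67 (-10.1 to -5.08) in WT and -4.00 (-5.83 to -2.74) in KO.

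Vegfd ran the other way, at 71.9 CPM (60.1 to 85.4) in WT SC, 84.1 CPM (70.5 to 99.5) in KO SC, 168 CPM (158 to 178) in WT IP and 270 CPM (255 to 285) in KO IP. A Vegfd UMI was found in 45.6% and 42.5% of the SC ASC and in 69.3% and 71.6% of the IP ASC, and in none of the 813 B cells, which are shallower (median depths of 4886 to 7310 UMIs) and whose 0 allows a share of cells with a UMI of up to 0.369%. Thinned to 2000 UMIs per cell, which left out 13 and 9 shallower ASC of SC and 23 and 25 of IP, the ASC shares were 15.6% and 9.91% in SC and 23.3% and 31.1% in IP. The log2 ratios of IP over SC were 1.22 (0.96 to 1.5) in WT and 1.68 (1.42 to 1.95) in KO.

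Vegfc was at 24.3 CPM (17.7 to 32.7) in WT SC, 23.7 CPM (16.8 to 32.5) in KO SC, 56.1 CPM (50.3 to 62.3) in WT IP and 69.2 CPM (61.7 to 77.3) in KO IP. The log2 ratios of IP over SC were 1.19 (0.75 to 1.69) and 1.53 (1.06 to 2.07). Vegfb, by contrast, was at 20.5, 26.8, 20.3 and 22.3 CPM in the same order of libraries, with log2 ratios of -0.02 (-0.55 to 0.56) and -0.27 (-0.79 to 0.29), so a difference between depots was not detectable in ASC as a whole at this depth. With each cell weighted equally the KO ratio was -0.88, and the subsets of ASC, given further on, went different ways.

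Nrp1 was at 105 CPM (90.7 to 121) in WT SC, 94.7 CPM (80.2 to 111) in KO SC, 190 CPM (179 to 201) in WT IP and 182 CPM (170 to 195) in KO IP, with log2 ratios of IP over SC of 0.85 (0.63 to 1.08) and 0.94 (0.69 to 1.20). Nrp2 was at 4.43 CPM (1.91 to 8.72), 9.34 CPM (5.23 to 15.4), 22.3 CPM (18.7 to 26.4) and 25.9 CPM (21.4 to 31.0), with log2 ratios of 2.25 (1.31 to 3.57) and 1.43 (0.69 to 2.35). With each cell weighted equally, the Nrp2 ratio in KO was 0.45, under 1.5-fold. Kdr and Flt4 had 20 and 2 UMIs in all ASC together and were not compared. The Flt1 difference is taken up with the KO comparison, since it turned round when cells were classed by clustering.

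**Figure D3:**
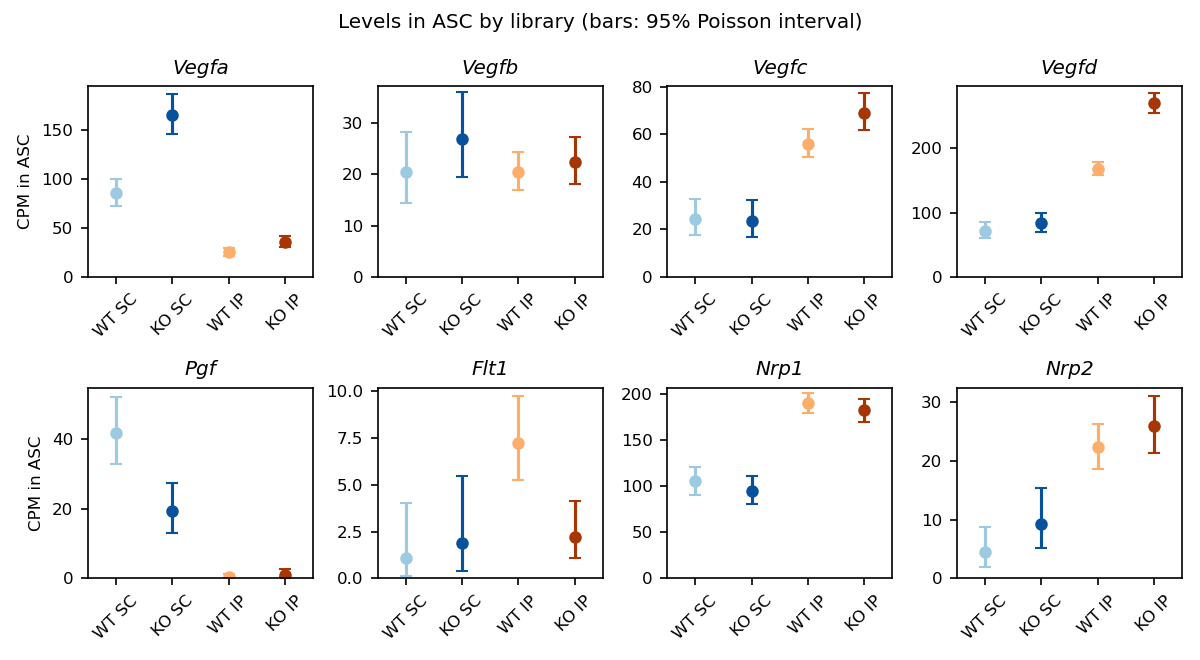
Levels of 8 members in ASC of each library (CPM, with 95% Poisson intervals as bars), 1 panel per gene. Vegfa and Pgf stand higher in both SC libraries, Vegfc, Vegfd, Nrp1 and Nrp2 stand higher in both IP libraries, and the Vegfb intervals overlap in all 4.

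ASC are a mixture of early progenitors and committed preadipocytes, and that mixture differed between depots. Each ASC was placed by the number of marker genes with a UMI, not by the sum of their UMIs. The early progenitor markers were Dpp4, Pi16, Cd55, Anxa3, Wnt2 and Bmp7. The committed markers were Icam1, Col4a1, Col15a1, Fabp4, Pparg and Lpl. The set with more genes found gave the subset, and ASC with equal numbers entered neither. Early against committed ASC numbered 58 and 43 in WT SC, 85 and 30 in KO SC, 38 and 213 in WT IP and 36 and 151 in KO IP.

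Nrp1 and Vegfc were higher in committed ASC in every library. The log2 ratio of committed over early ASC for Nrp1 was 2.81 (2.30 to 3.39) in WT SC, 2.92 (2.39 to 3.51) in KO SC, 0.80 (0.51 to 1.11) in WT IP and 1.39 (0.97 to 1.87) in KO IP. For Vegfc it was 1.81 (0.88 to 2.87), 2.05 (1.05 to 3.14), 1.35 (0.74 to 2.10) and 1.90 (1.12 to 2.92). Vegfa was higher in early ASC in the SC libraries, at -1.08 (-1.69 to -0.53) and -1.28 (-1.84 to -0.78), and did not differ beyond counting error in the IP libraries, at 0.08 (-0.58 to 0.87) and -0.54 (-1.11 to 0.12). All 75 and 31 Pgf UMIs of these SC cells were in early ASC, and the 43 and 30 committed cells had none, which sets limits for Pgf there of 4.45 and 6.91 CPM.

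Within the subsets, the depot difference of Nrp1 was beyond counting error in early ASC and not in committed ASC. In committed ASC, Nrp1 was at 227 CPM (192 to 266) in WT SC and 205 CPM (193 to 218) in WT IP, a log2 ratio of IP over SC of -0.15 (-0.39 to 0.11), and in KO the ratio was -0.30 (-0.58 to 0.01). In early ASC it was 1.87 (1.32 to 2.47) in WT and 1.23 (0.58 to 1.90) in KO. For Vegfc, the ratio in committed ASC was 0.48 (-0.04 to 1.10) in WT and 0.59 (0.00 to 1.30) in KO, smaller than in ASC as a whole. In early ASC the Vegfc ratio was 0.95 (-0.08 to 2.05) in WT and 0.74 (-0.51 to 1.95) in KO, within counting error. In WT, neither subset thus showed the Vegfc difference between depots beyond counting error.

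Vegfa and Vegfd kept their depot difference inside both subsets. For Vegfa, the log2 ratio of IP over SC was -2.19 (-2.98 to -1.53) in early and -1.03 (-1.58 to -0.42) in committed ASC of WT, and -1.98 (-2.61 to -1.44) and -1.24 (-1.77 to -0.65) in KO. For Vegfd it was 1.11 (0.73 to 1.5) and 1.56 (1.11 to 2.09) in WT, and 1.54 (1.13 to 1.96) and 1.37 (0.96 to 1.84) in KO. Nrp2 in committed ASC was also higher in IP, by 1.82 (0.59 to 3.88) in WT and 1.21 (0.07 to 3.0) in KO.

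Vegfb differed by subset. In early ASC it was lower in IP, with log2 ratios of IP over SC of -1.32 (-2.73 to -0.20) in WT and -1.19 (-2.57 to -0.13) in KO, each on 8 UMIs in IP. In committed ASC the ratios were 0.52 (-0.35 to 1.68) and 0.83 (-0.33 to 2.62), within counting error.

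**Figure D4:**
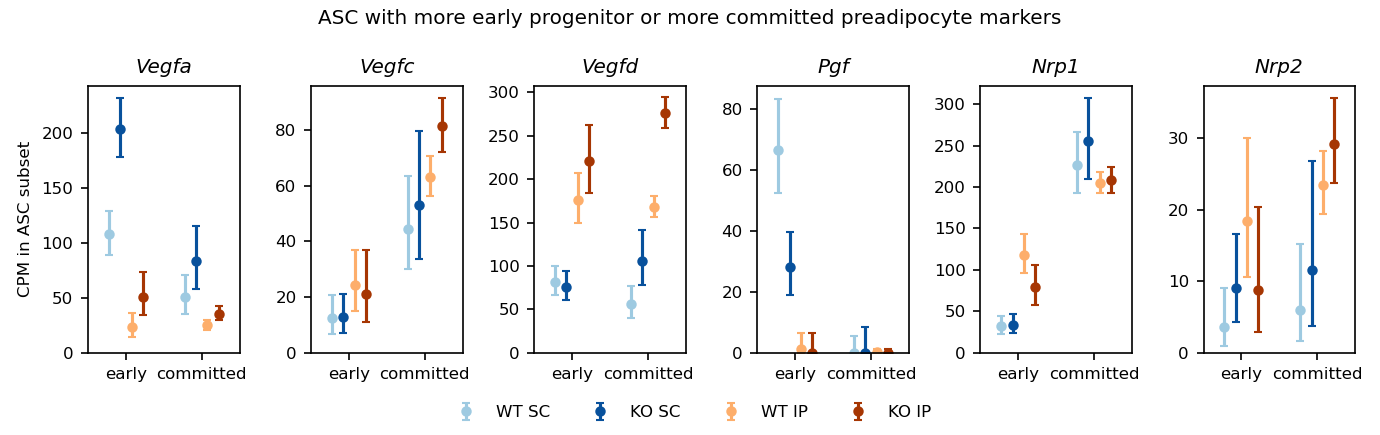
Levels of 6 members in early and committed ASC of each library (CPM, with 95% Poisson intervals as bars). Nrp1 of committed ASC does not differ between depots beyond counting error while that of early ASC is higher in IP, and Pgf is seen in the early ASC of SC.

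The study then asked what loss of Tert in the Tie2e-cre lineage changes in cells other than EC, and KO was compared with WT within each depot. These classes mix cells with and without a GFP UMI, in shares that differ by genotype. In SC the share with one was 41.7% (WT) and 54.2% (KO) of ASC, 67.2% and 40.4% of T cells, and 42.9% and 23.3% of B cells. In IP it was 32.5% and 18.3% of ASC, and 73.4% and 36.2% of T cells. The part of this in the ratios was not tested. In ASC of SC, Vegfa was higher and Pgf lower in KO. Of the 7 members with enough UMIs, 3 were past 1.5-fold, against 18.4% of the 9733 genes compared (9.26% higher and 9.16% lower). Vegfa, at 166 against 85.8 CPM, had a log2 ratio of KO over WT of 0.95 (0.66 to 1.24), and a UMI of it was found in 59.2% against 52.4% of the cells. Thinned to 2000 UMIs per cell, which left out 9 and 13 shallower cells, these shares were 21.6% (14.4 to 30.4) and 12.2% (6.26 to 20.8). Pgf, at 19.3 against 41.5 CPM, had a ratio of -1.09 (-1.76 to -0.48). Nrp2, the other member past 1.5-fold, had 15 UMIs against 8 and a ratio of 1.04 (-0.25 to 2.52), which is within counting error.

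The remaining ligands and Nrp1 of SC were close to even. The log2 ratio was 0.38 (-0.28 to 1.06) for Vegfb, -0.04 (-0.71 to 0.62) for Vegfc, 0.22 (-0.13 to 0.58) for Vegfd and -0.15 (-0.47 to 0.16) for Nrp1. With the 93 shared barcodes put back, the ratios of Vegfa, Pgf and Nrp2 were 0.91, -1.13 and 1.17.

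In ASC of IP, Vegfd was higher and Flt1 lower in KO, the 2 of 7 members that were past 1.5-fold, against 16.7% of 12314 genes (10.3% higher and 6.42% lower). Vegfd, at 270 against 168 CPM, had a log2 ratio of 0.68 (0.56 to 0.80). Vegfa and Vegfc were also higher beyond counting error but by less than 1.5-fold, with ratios of 0.48 (0.15 to 0.81) and 0.30 (0.08 to 0.53). The thinned share of cells with a Vegfa UMI went against the CPM in IP, at 3.63% (1.47 to 7.33) in KO and 5.45% (3.01 to 8.97) in WT, and no order is read from it. Vegfb at 0.14 (-0.26 to 0.53), Nrp1 at -0.06 (-0.19 to 0.07) and Nrp2 at 0.22 (-0.15 to 0.58) were within counting error.

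Flt1 in ASC of IP rested on few cells. WT IP had 44 UMIs in 21 of 280 cells (7.21 CPM, 5.24 to 9.68) and KO IP had 10 UMIs in 4 of 218 cells (2.23 CPM, 1.07 to 4.10), a log2 ratio of -1.64 (-2.85 to -0.68). B cells, which should lack it, were at 0.87 CPM over all libraries from 4 UMIs. Those of KO SC were at 1.66 CPM and those of WT SC had 0 UMIs. The ASC of SC, at 1.11 CPM in WT and 1.87 CPM in KO, and those of KO IP were within a few CPM of these levels. When cells were classed by Leiden clusters instead, the ratio of IP over SC in WT went from 2.40 (0.77 to 5.79) to -0.35, while that of KO over WT in IP was -2.48. Summed EC markers in these ASC were at 28.5 CPM in WT IP and 54.0 CPM in KO IP, and mural markers at 67.1 and 65.8 CPM.

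**Figure D5:**
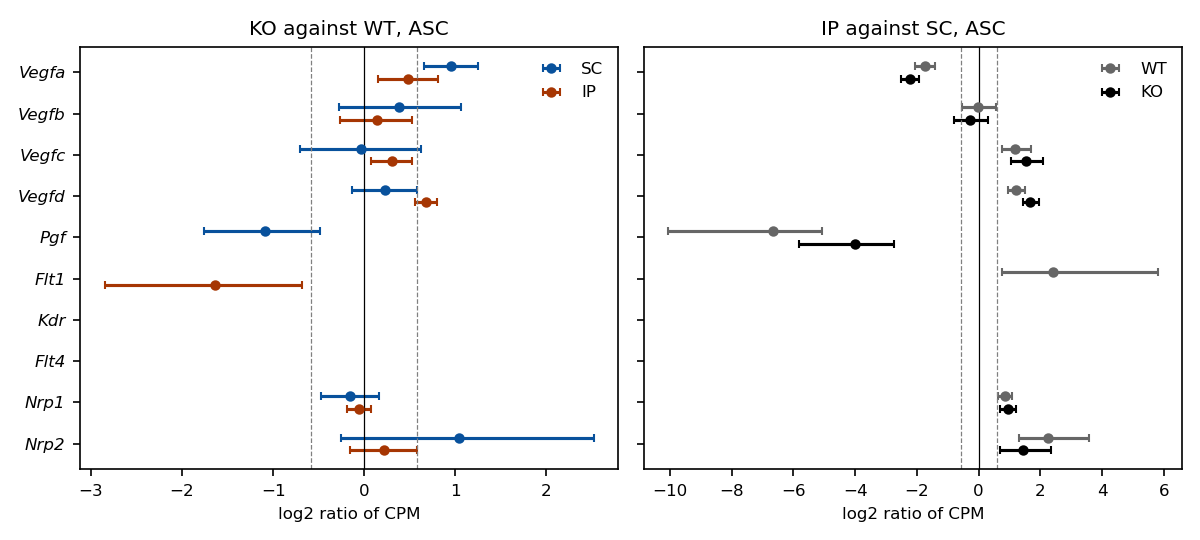
Log2 ratios of the members in ASC with 95% counting intervals, KO over WT in SC and IP (left) and IP over SC in WT and KO (right). Dashed lines mark 1.5-fold and only members with at least 20 UMIs in a pair are drawn. Vegfa lies above 0 in both depots on the left, and on the right the 2 genotypes lie on the same side for Vegfa, Vegfc, Vegfd, Pgf, Nrp1 and Nrp2.

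Vegfa was higher in KO in both depots, so its subsets and the state of the cells were examined. In early ASC the log2 ratio of KO over WT was 0.92 (0.59 to 1.25) in SC and 1.13 (0.27 to 2.04) in IP, and in committed ASC it was 0.72 (-0.00 to 1.44) and 0.51 (0.13 to 0.89). The summed level of 10 immediate-early genes, which dissociation is known to raise, was 7824 CPM in WT SC and 9789 CPM in KO SC, and 8363 CPM in WT IP and 6713 CPM in KO IP. It was thus higher in KO in SC, where 4 of the 10 genes were past 1.5-fold and all 4 higher, and lower in KO in IP, where 3 were past it and all 3 lower, while Vegfa was higher in KO in both. The WT and KO ASC had median depths of 19850 and 14243 UMIs in SC, and of 23098 and 20310.5 in IP. The part of these in the Vegfa difference was not tested.

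Pgf and Vegfd differed by subset. The lower Pgf of KO SC held within early ASC, at 28.0 against 66.6 CPM, a log2 ratio of -1.24 (-1.90 to -0.63). Vegfd in SC was even in early ASC, at -0.11 (-0.55 to 0.34), and higher in KO in committed ASC, at 106 against 56.4 CPM, a ratio of 0.91 (0.26 to 1.57). In IP its ratio was 0.32 (-0.03 to 0.67) in early and 0.72 (0.58 to 0.86) in committed ASC. Nrp1 of early ASC in IP was lower in KO, at 78.7 against 118 CPM, a ratio of -0.57 (-1.12 to -0.06), and even in committed ASC at 0.02 (-0.12 to 0.16).

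Among leukocytes, the member with most UMIs was Nrp1 in T cells, where it is known as a surface marker of thymus-derived regulatory T cells. Its level was 30.3 CPM (25.5 to 35.8) in the 461 T cells of WT SC, 19.2 CPM (16.5 to 22.1) in the 1162 of KO SC, 77.3 CPM (62.4 to 94.7) in the 124 of WT IP and 68.2 CPM (53.9 to 85.1) in the 127 of KO IP. T cells of IP were thus above those of SC in both genotypes.

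In SC, T cells with a Foxp3 UMI, the defining transcription factor of regulatory T cells, had more Nrp1. The log2 ratio over T cells without one was 2.42 (1.85 to 2.95) in WT SC, with 24 against 437 cells, and 2.33 (1.76 to 2.84) in KO SC, with 48 against 1114. In IP, however, Foxp3 was found in 0 of 124 and 3 of 127 T cells, and the T cells without it were still at 77.3 CPM (62.4 to 94.7) in WT and 63.9 CPM (49.9 to 80.6) in KO, above the 23.3 CPM (19.0 to 28.4) and 16 CPM (13.5 to 18.8) of SC.

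Between genotypes, Nrp1 in T cells of SC had a log2 ratio of KO over WT of -0.66 (-0.99 to -0.34), the 1 of 3 members compared that was past 1.5-fold, against 19.0% of 11322 genes. Of those genes 14.3% were lower and 4.67% higher, the median of all genes was -0.14, and under median-of-ratios scaling Nrp1 was at -0.52. Vegfa and Vegfb in the same cells were at -0.08 (-0.79 to 0.69) and -0.20 (-0.76 to 0.40). In T cells of IP, 1 of 2 members was past 1.5-fold, against 25.4% of 8305 genes (15.4% higher and 9.99% lower). This was Vegfb, at 0.68 (-0.60 to 2.10), within counting error, beside Nrp1 at -0.18 (-0.64 to 0.27). In B cells of SC, Vegfb was the 1 member compared, at -0.59 (-1.59 to 0.39), with 15.8% of 8882 genes past 1.5-fold (5.66% higher and 10.1% lower).

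Macrophages carried both neuropilins. In the 57 macrophages of WT IP, Nrp1 was at 79.6 CPM (62.9 to 99.3) and Nrp2 at 91.8 CPM (73.8 to 113), and in the 15 of KO IP they were at 149 CPM (96.6 to 220) and 185 CPM (126 to 263). KO IP fell under the 30 cells set for a comparison, and 21 of its 31 Nrp2 UMIs came from 1 cell, so no ratio is given. Leiden clusters named macrophage from the same markers held 125 cells of WT IP and 47 of KO IP. Of these, 57 and 15 were macrophages by the class rule. No cluster was named for monocytes or dendritic cells, so these clusters are wider than macrophages and their levels are not those of macrophages alone. In them Nrp1 was at 66.4 CPM (55.4 to 79.0) and 83.7 CPM (62.3 to 110.03). Nrp2 was at 73.8 CPM (62.1 to 87.0) and 72.2 CPM (52.5 to 96.9), and the intervals overlapped for both genes. Of the WT IP macrophages, the 8 with more resident markers were at 153 CPM (96.9 to 229) of Nrp1 and the 32 with more lipid-associated markers at 69.6 CPM (50.5 to 93.4), a log2 ratio of -1.15 (-1.89 to -0.34) for the latter over the former. Over all libraries, with 39 against 13 cells, the ratio was -0.59 (-1.27 to 0.16), within counting error.

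The other genes of the pathway were taken as 5 lists with 58 genes in all and followed in ASC. The list for ligand processing and binding holds CCBE1 and ADAMTS3, which together activate VEGF-C, and the matrix proteins that hold ligands back. In IP against SC, 6 of its 10 genes were past 1.5-fold in WT and 5 in KO, all higher in IP, where 18.8% and 21.1% of all genes were past it and higher. Ccbe1 had log2 ratios of 1.62 (1.16 to 2.15) in WT and 2.32 (1.84 to 2.88) in KO, and Adamts3 of 1.33 (0.60 to 2.25) and 2.19 (1.43 to 3.18), the same direction as Vegfc and Vegfd. Thbs1, thrombospondin 1, an inhibitor of angiogenesis, was at 2.22 (2.03 to 2.43) and 1.89 (1.59 to 2.22). The list's median was 0.76 in WT and 0.67 in KO, beside 0.07 and 0.10 over all genes.

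The class 3 semaphorins and plexins, which share the neuropilins with VEGF, ran mostly against them. In IP against SC, 8 of 10 genes compared were past 1.5-fold in WT, 6 lower and 2 higher, and 9 of 10 in KO, 6 lower and 3 higher, against 32.8% and 34.0% of all genes, 14.0% and 12.9% lower. The semaphorins Sema3a, Sema3c and Sema3e, ligands of neuropilins or of plexin D1, were lower in IP, with log2 ratios of -2.57 (-3.27 to -1.90), -2.39 (-2.50 to -2.28) and -2.16 (-2.38 to -1.95) in WT and of -2.30 (-3.21 to -1.47), -1.68 (-1.80 to -1.56) and -2.95 (-3.23 to -2.69) in KO. The plexins Plxna4 and Plxnd1 were higher, at 2.85 (0.84 to 8.76) and 2.57 (1.52 to 4.15) in WT and 4.35 (2.79 to 7.73) and 1.25 (0.48 to 2.22) in KO. The list's median was -1.28 in WT and -0.86 in KO, beside 0.07 and 0.10 over all genes.

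The 3 other lists were read against the same shares of all genes, 32.8% in WT and 34.0% in KO. Of the receptor-proximal signalling genes, 4 of 13 were past 1.5-fold in WT and 5 of 13 in KO, and Ptprj, a phosphatase that acts on KDR, was lower in IP at -1.59 (-1.74 to -1.43) and -1.29 (-1.45 to -1.13). Of the regulators of the Vegfa transcript, 4 of 10 and 6 of 11 were past it. Among these Epas1, which encodes HIF-2 alpha, was higher in IP, where Vegfa was lower, at 1.13 (0.82 to 1.48) in WT and 0.87 (0.58 to 1.19) in KO. Endothelial response genes had 3 of 5 and 2 of 4 past it.

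For KO against WT, 5 of the 44 pathway genes compared in ASC of SC were past 1.5-fold (11.4%) and 11 of 49 in ASC of IP (22.4%), beside the 18.4% and 16.7% of all genes. Thbs1 was lower in KO in both depots, with log2 ratios of -1.04 (-1.41 to -0.69) and -1.37 (-1.47 to -1.27). Ccn2, a matrix protein that binds VEGF-A, was lower in SC at -1.10 (-1.48 to -0.75). In IP, Ccbe1 at 0.71 (0.52 to 0.91) and Adamts3 at 0.84 (0.50 to 1.18) were higher in KO, beside the higher Vegfd and Vegfc of those cells. Plxna4, a plexin that partners neuropilins, was higher in KO in IP at 2.41 (1.89 to 2.99). Sema3d was lower in KO in SC, at -0.60 (-0.94 to -0.26), and higher in IP, at 0.83 (0.51 to 1.15).

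Among the 11 regulators of the Vegfa transcript, none of the 9 compared was past 1.5-fold in SC, where Vegfa differed more, and 3 of 11 were in IP, beside 18.4% and 16.7% of all genes. These were Hif1a, the hypoxia-inducible subunit, at 0.64 (0.48 to 0.80), Egln3, a prolyl hydroxylase that HIF induces, at 1.90 (0.91 to 3.08), and Ppargc1a, a coactivator, at 1.41 (0.72 to 2.14). Egln3 was low in both libraries, at 6.92 CPM in KO IP and 1.80 CPM in WT IP. Endothelial response genes, which ASC express little, had 1 of 4 past 1.5-fold in SC, Egr3 at 1.03 (0.02 to 2.15), and 2 of 5 in IP, Dusp5 at -1.60 (-2.17 to -1.09) and Hey1 at -2.06 (-4.18 to -0.66). Of the receptor-proximal signalling genes, 0 of 13 were past 1.5-fold in either depot.

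Genes whose pattern over classes was most like that of a member were listed by Spearman correlation of log2(CPM + 10) over 19 sums, each 1 class in 1 library with at least 20 cells, among 11128 genes. The sums share libraries and differ in depth, so these are descriptions. The nearest genes were Amotl1 (0.99), Gpr153 and Rhobtb3 for Vegfd, Cmklr1 (0.90), Plod1 and Sgk1 for Vegfc, and Mafk (0.86), Tmem18 and Ston2 for Vegfa. They were Efnb2 (0.94), B3galt6 and Mcc for Vegfb and Atp8b1 (0.98), Krt19 and Nrep for Pgf. For the receptors they were Casp12 (0.99), Arpin and Ccdc149 for Kdr, Fgd4 (0.87), Cdc42ep4 and Mpeg1 for Flt1 and Aqp1 (0.89), Abca4 and Hspb2 for Flt4. For the coreceptors they were Qpct (0.94), Hk2 and Pdcl3 for Nrp1 and Slc35b2 (0.95), Cnih4 and Bag6 for Nrp2. EC entered none of the sums, since no library had 20 of them, so for Flt1, Kdr and Flt4 the likeness describes other classes. Over all libraries, Flt4 had 2 UMIs in ASC, 5 in mesothelial cells and 0 in the other classes of the sums. Its ranks there are mostly ties, and nothing is read from its nearest genes.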

How the data were processed

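Single cells of 4 adipose tissue libraries had been sequenced with the 10x Genomics Chromium Single Cell 3' v3 kit. The deposited tables are raw UMI counts. Cell Ranger 7.0.0 is named per the file headers, and STAR 2.6 and mm10 in the submitters' processing notes. Whether intronic reads were counted, how barcodes were called as cells and how sample labels relate to mice were not given in the sources used here.

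Barcodes needed 200 genes and no more than 25% of mitochondrial UMIs, which 4136 met, the 23 that Scrublet marked as doublets (0.556%) and 93 barcodes of KO SC shared with WT IP were removed, and a cell took the class for which the largest part of the marker list had UMIs (2 markers or more), unless an unrelated class reached 0.5 of that part. Mesothelial markers overrode ASC markers and lymphocyte markers overrode those of monocytes and plasmacytoid dendritic cells. This left 52 mixed and 151 unassigned cells. UMIs were summed per class and library and divided by the class total (CPM). Ratios took 0.5 UMI added to each count. Classes were compared where both libraries had at least 30 cells, genes where the pair had at least 20 UMIs, and a gene counted as past a fold at 1.5. No statistical test was possible with 1 library per group. Calculations used scanpy 1.11.5, scipy 1.17.1, pandas 2.3.3 and numpy 2.4.6 under Python 3.11.15 and were tested on simulated data. Macrophages were not compared, since KO IP had 15 under this rule for classes. Levels in the wider Leiden clusters named macrophage are given instead.

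The members and gene lists were chosen with earlier results of these data known. All 10 members were named. Pathway genes were named where they were past 1.5-fold with an interval that left out 0, at most 4 per list and comparison by size. The scoring rule for classes, the removal of shared barcodes and the immediate-early list were set after seeing the data. Promoters were read from RefSeq, which held all 10 members.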

Additional observations from a re-analysis of the deposited data

Results flagged for a closer look

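Each value here is a log2 ratio of KO over WT in ASC. Sema3c was at -0.36 in SC and 0.35 in IP, Sema3d at -0.60 and 0.83, and Sema3e at 0.28 and -0.51, so these 3 semaphorins lay on opposite sides of 0 in the depots. Zfp36, a regulator of Vegfa transcript stability, was at 0.51 in SC and -0.081 in IP. None of these differences between depots was tested, since each group had 1 library.

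The barcodes that failed the cell filters also held member UMIs. There were 7 in 250 such barcodes of WT IP and 12 in 179 of KO IP, above the 3 that a count of 0 allows, and 3 and 2 in those of WT SC and KO SC.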

How the results depend on the processing

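The alternatives were classing by Leiden clusters, at least 500 genes, at most 10% mitochondrial UMIs, no doublet removal, at least 3 markers of a class, median-of-ratios scaling, equal weight for each cell, leaving out, in each class and library, the cell with most UMIs of a gene, at least 50 UMIs or no minimum, past 2-fold and, chosen after seeing the data, the shared barcodes kept. Of the alternative values of single members, 303 stayed within the counting interval of the reported one and 4 did not. Flt1 of IP over SC in WT ASC was reversed, from 2.40 to -0.35, with Leiden clusters. Under equal weight, Vegfb moved to -0.54 (KO over WT in IP) and -0.88 (IP over SC in KO), and Nrp2 of IP over SC in KO to 0.45. Members past 1.5-fold in ASC of SC were 3, and 6 with no minimum of UMIs. In ASC of IP they were 2, then 5 with no minimum and 1 past 2-fold. In T cells they were 2, then 1 with Leiden clusters, median-of-ratios scaling, equal weight or at least 50 UMIs, 6 with no minimum and 0 past 2-fold. In B cells of SC there was 1, then 0 with Leiden clusters, 3 markers, median-of-ratios scaling, 50 UMIs or past 2-fold, and 5 with no minimum. EC was the highest class for 6 members and, with Leiden clusters, for 0, since no EC cluster had 20 cells, and the EC share of receptor UMIs was then 52.1% against 59.8%. The ASC share of ligand UMIs was 85.8% without these top cells, against 78.4%. The cause was not tested, apart from fewer genes or cells under stricter rules. No paired analysis was possible because each group had 1 library. EC receptors rest on 26 cells, and 3 receptors had too few UMIs in ASC of SC to be compared.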
